A study of Homo sapiens with 4 samples.

Results

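Open chromatin was examined around 9 genes of the intestinal WNT programme and of intestinal identity: LGR5, ASCL2, AXIN2, TCF7L2, SOX9, CDX2, HNF4A, KLF5 and GATA6. They have 10 listed transcription starts on hg19, HNF4A having 2. Peaks whose midpoint lay within 20 kb of a start were taken, and those within 2 kb were called promoter peaks. This choice uses positions only, not peak heights. The 4 peak lists of the study together held 78788 regions, of which 33 belonged to these genes, 16 of them at promoters. ATAC-seq libraries, in which a transposase tags accessible DNA with sequencing adapters, were made from 50000 wild-type HCT116 cells each. Cells had been in tunicamycin at 0.5 µg/ml (Tm) or in 0.1% DMSO, the solvent, for 6 h. Each group had 2 libraries, which the series describes as biological replicates. The study compared accessible chromatin in cells under endoplasmic reticulum (ER) stress with that in vehicle-treated cells.

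In the canonical WNT pathway, β-catenin that escapes degradation enters the nucleus and binds TCF/LEF proteins, which then activate target genes. In the intestinal crypt this programme maintains stem cells, while CDX2, HNF4A and the GATA factors are known for keeping up intestinal identity and differentiation. HCT116 is a human colorectal cancer line that carries a mutation stabilising β-catenin, so WNT target genes are studied in it without added ligand. Tunicamycin blocks the first step of N-glycosylation, so unfolded glycoproteins accumulate in the ER.

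Peak lists rather than reads were available, so a region missing from a list was not called there, which does not show that it had no reads. The Tm lists held 58467 and 62526 peaks, against 56581 and 56566 in the DMSO lists. The height of a peak is given as its summit pileup, the number of reads over the summit as recovered from the authors' fold and p-value. The median summit pileup was 15 or 16 in each library, and the lowest listed was 3. The lowest background the lists imply was 0.14 to 0.15 reads per position, a relative measure of depth. Exact Poisson 95% intervals are given for some pileups and cover counting error only.

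Promoter sequences were taken from RefSeq on GRCh38.p14, in which 5 of the 9 genes (CDX2, GATA6, HNF4A, KLF5 and TCF7L2) matched with 9 promoters in all. Positions on that build were not converted to hg19. The 250 bases before 6 of these starts are shown because the genes differ in what the peak lists hold near their listed hg19 starts: HNF4A, with no promoter peak, KLF5, with its tallest region over 2 kb downstream, TCF7L2, with tall promoter peaks, and CDX2. Whether each RefSeq start is the same as a listed hg19 start was not tested. Each runs 5′ to 3′ along the strand of the gene, and capitals mark matches to the motifs spelled out after the sequences.
HNF4A start 1, chr20:44355449-44355698, plus strand: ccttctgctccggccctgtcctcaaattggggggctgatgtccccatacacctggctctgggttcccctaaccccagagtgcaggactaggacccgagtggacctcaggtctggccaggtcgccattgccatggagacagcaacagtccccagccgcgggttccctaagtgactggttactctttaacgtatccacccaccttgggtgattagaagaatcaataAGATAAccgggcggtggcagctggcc
HNF4A start 2, chr20:44400989-44401238, plus strand: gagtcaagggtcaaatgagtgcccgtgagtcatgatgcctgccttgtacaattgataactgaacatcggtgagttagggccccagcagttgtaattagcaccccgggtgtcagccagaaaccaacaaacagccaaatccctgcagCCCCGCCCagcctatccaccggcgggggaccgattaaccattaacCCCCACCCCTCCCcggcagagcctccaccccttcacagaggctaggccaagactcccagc
KLF5 start 1, chr13:73054726-73054975, plus strand: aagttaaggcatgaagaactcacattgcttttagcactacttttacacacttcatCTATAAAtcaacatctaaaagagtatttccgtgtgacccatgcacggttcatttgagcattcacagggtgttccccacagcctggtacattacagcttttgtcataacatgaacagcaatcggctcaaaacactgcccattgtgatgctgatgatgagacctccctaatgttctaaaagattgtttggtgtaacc
KLF5 start 2, chr13:73058755-73059004, plus strand: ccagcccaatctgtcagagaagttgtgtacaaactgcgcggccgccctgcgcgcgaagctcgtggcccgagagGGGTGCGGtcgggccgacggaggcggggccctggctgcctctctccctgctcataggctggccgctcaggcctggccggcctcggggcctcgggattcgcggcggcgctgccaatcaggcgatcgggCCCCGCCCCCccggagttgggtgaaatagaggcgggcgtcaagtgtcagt
TCF7L2 start 1, chr10:112949997-112950246, plus strand: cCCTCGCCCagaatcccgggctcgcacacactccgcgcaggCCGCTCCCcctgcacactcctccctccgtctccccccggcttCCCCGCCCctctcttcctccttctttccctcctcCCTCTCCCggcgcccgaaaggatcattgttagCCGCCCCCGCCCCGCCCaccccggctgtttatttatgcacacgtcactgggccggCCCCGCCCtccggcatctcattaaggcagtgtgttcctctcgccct
CDX2 start, chr13:27969316-27969565, minus strand: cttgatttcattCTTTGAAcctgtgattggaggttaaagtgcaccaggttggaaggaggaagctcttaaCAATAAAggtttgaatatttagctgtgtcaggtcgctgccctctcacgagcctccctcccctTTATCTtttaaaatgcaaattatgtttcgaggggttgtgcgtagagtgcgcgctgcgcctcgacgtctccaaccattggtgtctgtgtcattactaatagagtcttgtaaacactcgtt

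Motifs were sought on both strands of the full 300 bases in the table (250 before and 50 after each start), and overlapping matches count separately. The KLF/SP motif CCNCNCCC was found in 56.2% of all 35116 promoters in the table, the GATA motif AGATAA in 10.3%, the CDX motif TTTATNG in 9.73%, the TATA motif TATAAA in 11.5%, and either TCF/LEF motif, CTTTGAA or CTTTGAT, in 6.86%. The CDX2 promoter held a TCF/LEF match at position -238, a CDX match at -181 and a GATA match at -119, where positions count the first base of the match from the start. The first TCF7L2 promoter held 9 KLF/SP matches, 1 of them after the start and so not printed, and the second KLF5 promoter held 3, of which 2 overlap. KLF5 start 1 had a CDX match at -195 that overlaps a TATA match, and HNF4A start 1 had a GATA match at -26. The HNF4 motif CAAAGTCCA (0.384% of all promoters), the ER stress response element ERSE (0.0769%), the cAMP response element TGACGTCA (1.85%) and the ATF4-C/EBP motif TGATGNAA (3.62%) were in none of the 9 promoters. A match or its lack describes these letters only.

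Base composition differed among the promoters of these genes. GC content was 71.3% at KLF5 start 2, with 37 CpG sites, and 40.7% at KLF5 start 1, with 4 CpG sites. TCF7L2 start 1 had 65.7% GC and 25 CpG sites, and GATA6 66.7% and 25. HNF4A had 60.0% and 11 CpG sites at start 1 and 57.7% and 9 at start 2, and CDX2 had 50.3% and 16. The median over all promoters in the table was 58.7% GC and 14 CpG sites.

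Within 2 kb of a listed start, 5 genes (ASCL2, TCF7L2, SOX9, CDX2 and GATA6) had a peak in all 4 libraries. KLF5, AXIN2 and LGR5 had such a peak in 3, and HNF4A in none. The ASCL2 peak lay 1942 bp downstream and was low, with summit pileups of 5 to 9. KLF5 also had a tall region in all 4 libraries, 3913 bp downstream of its listed start and so outside this limit. A region listed in all 4 libraries is called common here, one in both Tm lists and neither DMSO list gained, and the reverse lost. Of the 33 regions, 16 were common (48.5%, beside 51.3% of all regions), 3 were gained (9.09%, beside 3.65%), 0 were lost (beside 1.86%) and 14 had another pattern. With 2 libraries a group, presence in the lists gives no test of a single region. Among the 14, 7 were in 1 list only (1 in each Tm list, 3 in DMSO replicate 1 and 2 in DMSO replicate 2), 1 was in 2 lists and 6 were in 3. Of the 17 regions that were not common, 7 spanned under 130 bp.

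**Figure D1:**
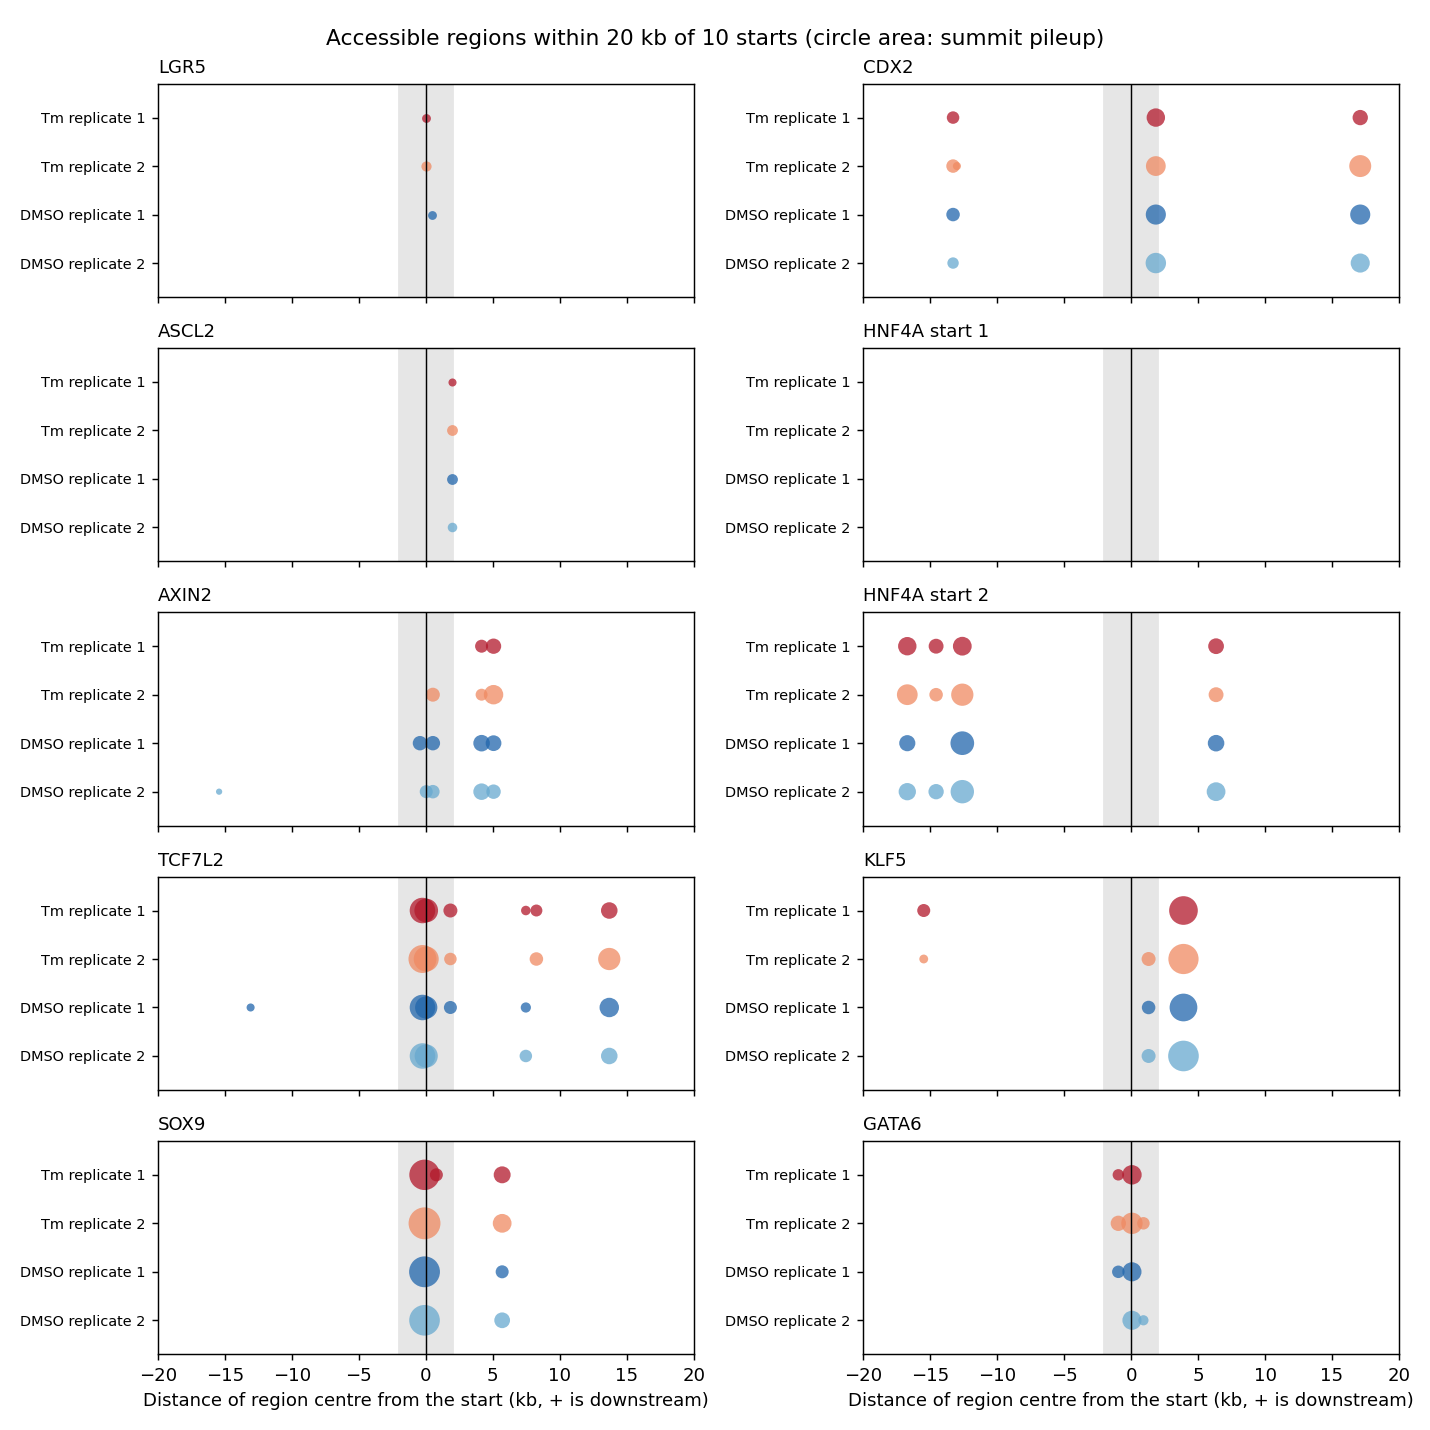
Regions within 20 kb of the 10 listed starts, plotted by the distance of their centre from the start in kb (positive values downstream), with 1 row per library and circle area in proportion to the summit pileup in reads. Grey marks the 2 kb on either side of the start; the large circles of SOX9, TCF7L2 and KLF5 appear in all 4 rows, and the panel of HNF4A start 1 is empty.

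The amount of open chromatin over the 9 genes was compared between Tm and DMSO by peak number, promoter peaks and covered bases. With 2 libraries a group these tests could not have told the groups apart, so they do not show that the groups were alike. The Tm libraries listed 24 and 26 peaks (25 ± 1.41, SD, n = 2), against 24 and 23 in the DMSO libraries (23.5 ± 0.707, SD, n = 2). The difference of 1.5 peaks gave p = 0.667 in a two-sided exact permutation test, in which 2 libraries against 2 cannot go below 0.333. Promoter peaks numbered 10 and 12 in Tm and 12 and 10 in DMSO (exact permutation p = 1). Peaks covered 4421 and 4872 bases in Tm, against 5107 and 4334 in DMSO, a difference of means of -74 bases (exact permutation p = 1). That difference was 151.5 bases without Tm replicate 1 and 312.5 without DMSO replicate 1.

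Heights of the 16 common regions were compared as ranks. In each library all 40447 common regions of the study were ranked by the authors' q-value and the ranks turned into normal scores, which were compared with limma and adjusted by Benjamini-Hochberg over all 40447. A percentile rank of 100 is the strongest common region of a library. None of the 16 passed an adjusted p of 0.05, and the smallest of their adjusted p-values (limma) was 0.411. Over all common regions 0.0346% were called higher and 0.0173% lower in Tm. At an unadjusted p under 0.05 stood 2 of the 16 (12.5%), beside 7.33% of all common regions. Both Tm ranks lay above both DMSO ranks in 4 of the 16 (25%, beside 18% of all). The 4 include both TCF7L2 regions at its start, which merged when peaks up to 250 bp apart were joined. Both Tm ranks lay below in 5 (31.2%, beside 18.3%), and in 7 the ranks of the groups overlapped. The score difference was above 0 in 7 and below 0 in 9, with a median of -0.10 and, over all common regions, 0.00044. In absolute size its median was 0.32, and 0.27 over all. Both Tm summit pileups lay above both DMSO pileups in 4 of the 16 and below in 4, and overlapped in 8. The share of all common regions with such pileups was not counted, so pileups without overlap are only described below.

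**Figure D2:**
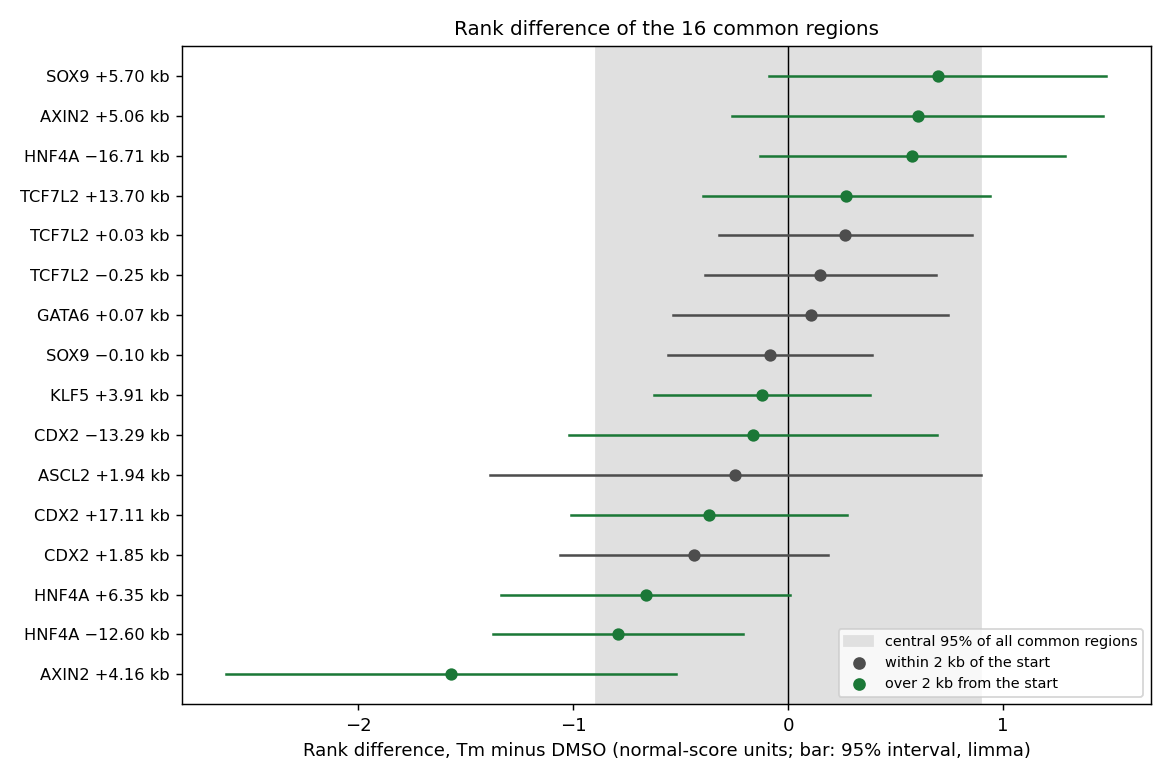
Difference in normal score, Tm minus DMSO, of each of the 16 common regions, with its 95% interval from limma (points and bars), promoter regions in dark grey and regions over 2 kb from the start in green. Grey shading holds the central 95% of all 40447 common regions (-0.89 to 0.90), and AXIN2 at +4.16 kb is the 1 point outside it.

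LGR5 encodes the receptor for R-spondins that marks crypt stem cells and is itself a WNT target. Its start held a gained region, 44 bp downstream, at chr12:71833492-71833691. The peak had a summit pileup of 6 in Tm replicate 1 and 8 in Tm replicate 2, and neither DMSO library listed it. These are low heights: the Poisson 95% intervals were 2.2 to 13.1 for a pileup of 6 and 3.45 to 15.8 for 8, and the peaks ranked at percentiles 6.93 and 16.7 of all peaks in their lists. DMSO replicate 1 had a peak of its own 427 bp downstream of the start, at chr12:71833851-71834104, also with a summit pileup of 6, which lay 159 bp from the gained region. In DMSO replicate 2 the nearest peak was 23.97 kb away. LGR5 therefore had a weak promoter peak in 3 of the 4 libraries, at places that differed between Tm and DMSO replicate 1, and with peaks up to 250 bp apart joined the region was not gained.

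ASCL2 is a basic helix-loop-helix factor that drives the stem cell programme together with β-catenin and TCF. Its only region, 1942 bp downstream of the start at chr11:2290141-2290348, had summit pileups of 5 and 9 in Tm and 9 and 7 in DMSO. The groups overlapped, and the score difference was -0.25 ± 0.573 (SE, limma adjusted p = 0.973; 95% interval -1.39 to 0.90). It had the lowest mean summit pileup of the 16 common regions in each group. Its percentile ranks were 1.06 and 12.3 in Tm and 13.0 and 3.24 in DMSO. Its summits were spread over 116 bp among the libraries, and that of Tm replicate 1 lay 2006 bp downstream, beyond the 2 kb limit. The difference was 0.33 without Tm replicate 1, 0.07 without DMSO replicate 1 and 0.34 when ranked by width.

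TCF7L2 encodes TCF4, the main DNA-binding partner of β-catenin in the intestinal epithelium. A pair of strong common regions stood at its start. The upstream one, 250 bp before the start at chr10:114709610-114709884, had summit pileups of 50 and 60 in Tm and 50 and 50 in DMSO. The other, centred 30 bp after the start at chr10:114709936-114710144, had 43 and 48 in Tm and 38 and 41 in DMSO. Both Tm ranks were above both DMSO ranks at each of these regions, by small amounts: percentile ranks at the upstream region were 93.0 and 93.8 in Tm and 92.0 and 90.4 in DMSO. The score differences were 0.15 ± 0.269 upstream (SE, limma adjusted p = 0.958; 95% interval -0.39 to 0.69) and 0.27 ± 0.296 at the start (SE, limma adjusted p = 0.909; 95% interval -0.32 to 0.86). Ranked by width, the upstream difference was -0.67. A weaker promoter region 1836 bp downstream, at chr10:114711775-114711920, had pileups of 15 and 12 in Tm and 13 in DMSO replicate 1, and was not listed in DMSO replicate 2.

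TCF7L2 also had a gained region, 8255 bp downstream of the start at chr10:114718201-114718331. Its summit pileup was 11 in Tm replicate 1 and 14 in Tm replicate 2, with summits 9 bp apart, and neither DMSO list held it. Its peaks were 128 and 122 bp wide and ranked at percentiles 17.4 and 31.1 of their lists. A region 7467 bp downstream had 7 in Tm replicate 1 and 8 and 12 in DMSO, and was missing from Tm replicate 2. The common region 13696 bp downstream, at chr10:114723594-114723806, had 21 and 38 in Tm and 29 and 21 in DMSO, with a score difference of 0.27 ± 0.336 (SE, limma adjusted p = 0.927), which was -0.25 without Tm replicate 2 and -0.05 without DMSO replicate 2. Here the Tm replicates differed from each other more than the group means did. The remaining region, 13080 bp upstream, was in DMSO replicate 1 only, with a pileup of 5.

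SOX9 is an HMG-box factor of crypt base and Paneth cells that lies downstream of WNT signalling. Its promoter region, 96 bp before the start at chr17:70116955-70117182, was the strongest region of the 9 genes, with summit pileups of 71 and 78 in Tm and 73 and 72 in DMSO. Its percentile ranks among common regions were 99.3 and 99.2 in Tm and 99.5 and 99.3 in DMSO, and the score difference was -0.09 ± 0.237 (SE, limma adjusted p = 0.977; 95% interval -0.56 to 0.39). The region 5700 bp downstream, at chr17:70122705-70122971, had 22 and 27 in Tm and 13 and 19 in DMSO, without overlap, a ratio of mean pileups of 1.53. Its score difference of 0.70 ± 0.393 (SE, limma adjusted p = 0.739; 95% interval -0.09 to 1.48) was the largest positive one among the 16 and was not called, and it was -0.24 when peaks were ranked by width. A narrow peak 788 bp downstream, at chr17:70117892-70118006, was listed in Tm replicate 1 only, with a pileup of 13 and a width of 115 bp.

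AXIN2 encodes a scaffold of the β-catenin destruction complex, is a direct WNT target and acts as a negative feedback regulator. It had 2 and 3 peaks in Tm, against 4 and 5 in DMSO, and 0 and 1 promoter peaks in Tm, against 2 and 2 in DMSO. Whether these counts differ between the groups was not tested for single genes. An exact permutation test of 2 libraries against 2 could not go below 0.333. How often counts at other genes of the study lie apart in this way was not counted, so these are only described. The region 526 bp downstream of the start, at chr17:63557174-63557300, had summit pileups of 15 in Tm replicate 2 and 16 and 14 in DMSO, and was missing from Tm replicate 1. DMSO replicate 1 alone listed a peak 436 bp upstream, at chr17:63558143-63558263 with a pileup of 16. DMSO replicate 2 alone listed one 31 bp downstream, at chr17:63557682-63557789 with a pileup of 13. The DMSO libraries thus shared 1 of their 3 AXIN2 promoter regions. The only region upstream by more than 2 kb, at 15432 bp, was in DMSO replicate 2 alone with a pileup of 3, the lowest listed.

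Neighbouring common regions downstream of the AXIN2 start had score differences of opposite sign. The region 4164 bp downstream, at chr17:63553500-63553721, had summit pileups of 13 and 11 in Tm and 21 and 21 in DMSO, without overlap, and a ratio of mean pileups of 0.571. Its peaks were also narrower, 147 and 111 bp wide in Tm and 217 and 219 bp in DMSO, and its percentile ranks were 4.42 and 0.757 in Tm and 31.8 and 29.9 in DMSO. The score difference of -1.57 ± 0.525 (SE; 95% interval -2.61 to -0.52) was the largest in size among the 16, with a limma unadjusted p of 0.00389 and an adjusted p of 0.411, so it was not called. The Poisson 95% interval of 21 reads, 13.0 to 32.1, overlapped those of 13 reads, 6.92 to 22.2, and 11 reads, 5.49 to 19.7. Such overlap of single counts is not a test of a difference. The region 5056 bp downstream, at chr17:63552638-63552788, had 18 and 29 in Tm and 19 and 16 in DMSO, with overlap, and a score difference of 0.60 ± 0.432 (SE, limma adjusted p = 0.834; 95% interval -0.26 to 1.46).

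**Figure D3:**
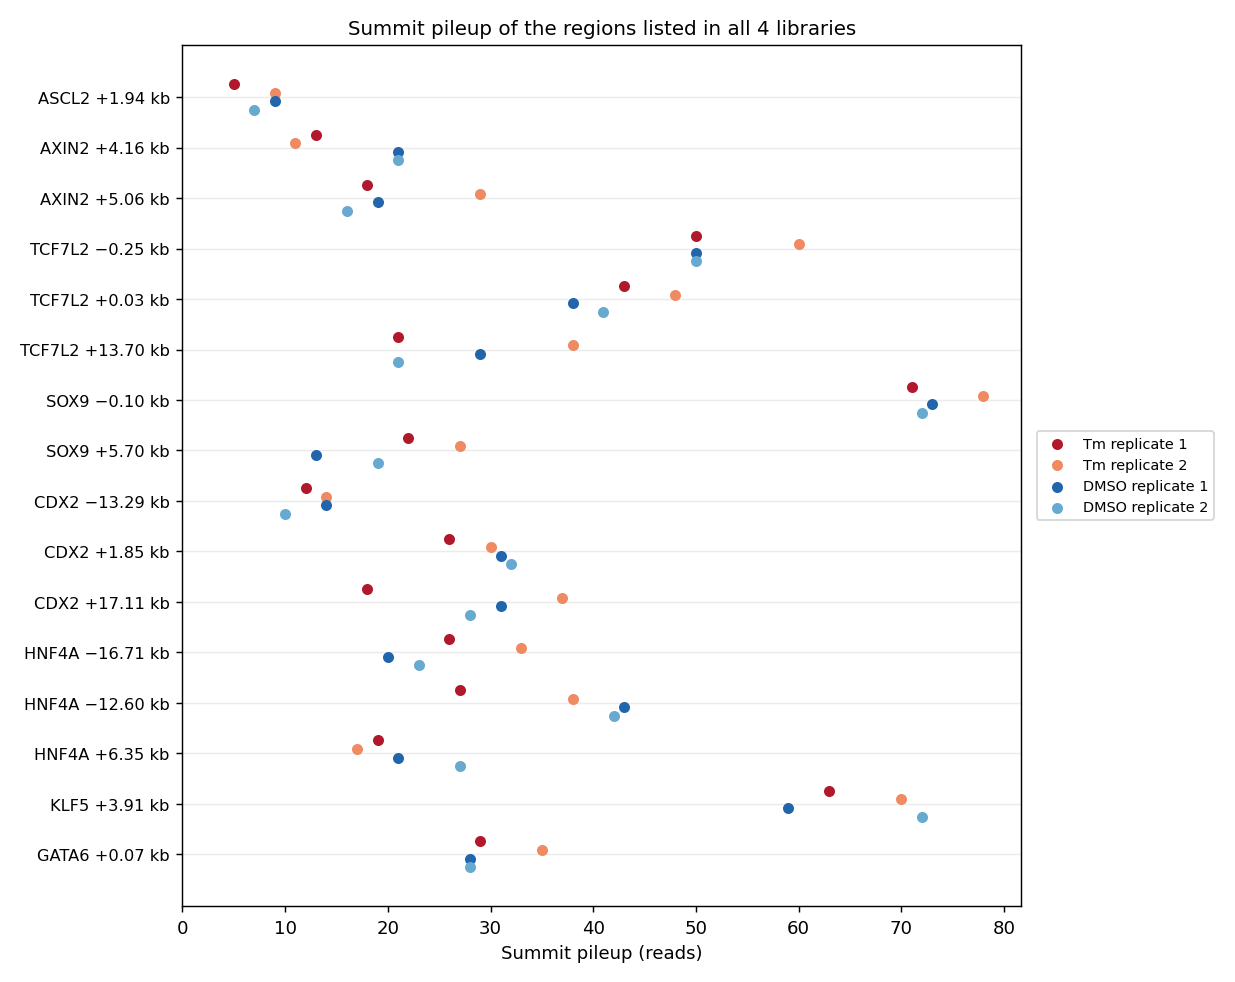
Summit pileup in reads (x axis) of each of the 16 common regions in each library, Tm replicates in red tones above DMSO replicates in blue tones. Points of the groups are apart at AXIN2 +4.16 kb (13 and 11 in Tm, 21 and 21 in DMSO) and mixed or close at the tallest regions of SOX9, KLF5 and TCF7L2.

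CDX2 is the homeobox factor that specifies intestinal epithelium. Its listed start was not checked against an hg19 annotation and may not be the start that RefSeq gives, so distances from it depend on that coordinate. The region nearest to it, 1849 bp downstream at chr13:28543247-28543598, had summit pileups of 26 and 30 in Tm and 31 and 32 in DMSO. Peaks there were 286 and 304 bp wide in Tm and 340 and 347 bp in DMSO. Both Tm values lay below both DMSO values in height and width, and the score difference was -0.44 ± 0.314 (SE, limma adjusted p = 0.833; 95% interval -1.06 to 0.19). The strongest distal region, 17109 bp downstream at chr13:28528044-28528315, had 18 and 37 in Tm and 31 and 28 in DMSO, so that the DMSO values lay between those of the Tm replicates (score difference -0.37 ± 0.322, SE, limma adjusted p = 0.869). Without Tm replicate 1 that difference was 0.24, and ranked by width it was 0.051. The other regions were a common one 13289 bp upstream, with pileups of 12 and 14 in Tm and 14 and 10 in DMSO, and one 13000 bp upstream in Tm replicate 2 only, with a pileup of 5.

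HNF4A is a nuclear receptor of enterocytes and hepatocytes that is transcribed from alternative promoters. On hg19 its listed starts are 45455 bp apart. The first had no peak within 20 kb in any library, the nearest being 28.74 to 28.76 kb downstream, and the second had none within 2 kb, the nearest being 6.33 to 6.36 kb away. Its regions lay instead upstream of the second start and downstream of it. The region 12599 bp upstream of the second start, at chr20:43017146-43017448, had summit pileups of 27 and 38 in Tm and 43 and 42 in DMSO, without overlap. Its percentile ranks were 65.2 and 80.2 in Tm and 92.7 and 91.4 in DMSO. The score difference of -0.79 ± 0.291 (SE; 95% interval -1.37 to -0.21) had a limma unadjusted p of 0.00826 and an adjusted p of 0.476, so it was not called. Ranked by peak width instead of q-value, the difference was 0.13.

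The other HNF4A regions differed in sign. The region 16706 bp upstream, at chr20:43013120-43013270, had 26 and 33 in Tm and 20 and 23 in DMSO, without overlap, and a score difference of 0.58 ± 0.356 (SE, limma adjusted p = 0.777; 95% interval -0.13 to 1.29). The region 6346 bp downstream, at chr20:43036114-43036364, had 19 and 17 in Tm and 21 and 27 in DMSO, also without overlap, and a score difference of -0.66 ± 0.337 (SE, limma adjusted p = 0.690; 95% interval -1.33 to 0.0079). Between these upstream regions, a narrow one 14555 bp before the start had 17 and 14 in Tm and 18 in DMSO replicate 2 and was missing from DMSO replicate 1. Regions with higher and with lower Tm values thus stood within 5 kb of each other upstream of the second start.

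KLF5 is a zinc finger factor of proliferating crypt cells. Its tallest region, 3913 bp downstream of the listed start at chr13:73632781-73633254, had summit pileups of 63 and 70 in Tm and 59 and 72 in DMSO. Its peaks were 376 and 455 bp wide in Tm and 439 and 425 bp in DMSO, and the score difference was -0.12 ± 0.251 (SE, limma adjusted p = 0.966; 95% interval -0.62 to 0.38), or 0.069 without DMSO replicate 2. In RefSeq on GRCh38.p14 the CpG-rich second KLF5 start lies 4029 bp downstream of the first. Positions were not converted between builds, so whether the tall region lies at that second start was not tested. If the listed start is the first of these, the same spacing on hg19 would put the second inside the tall region. That condition was not checked. The region 1309 bp downstream, at chr13:73630317-73630538, had 15 in Tm replicate 2 and 14 and 15 in DMSO and was missing from Tm replicate 1. A gained region lay 15478 bp upstream, at chr13:73613563-73613711, with pileups of 13 in Tm replicate 1 and 6 in Tm replicate 2 and no peak in DMSO. Its rank differed between the Tm lists, at percentile 56.2 in replicate 1 and 10.1 in replicate 2, and its summits were 36 bp apart.

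GATA6 is a zinc finger factor of endoderm and of the crypt. Its common region centred 66 bp after the start, at chr18:19749332-19749759, had summit pileups of 29 and 35 in Tm and 28 and 28 in DMSO. Widths varied more within DMSO, at 407 and 189 bp, than within Tm, at 274 and 241 bp, and the score difference was 0.10 ± 0.321 (SE, limma adjusted p = 0.981; 95% interval -0.53 to 0.74). It was -0.029 without Tm replicate 2 and -0.14 when ranked by width. Weaker promoter regions flanked it. The one 951 bp upstream, at chr18:19748394-19748538, had 10 and 18 in Tm and 12 in DMSO replicate 1, and was missing from DMSO replicate 2. The one 922 bp downstream, at chr18:19750259-19750432, was listed in Tm replicate 2, with a pileup of 12, and in DMSO replicate 2, with 8. No other peak lay within 20 kb, and the nearest one outside was 60.56 kb away.

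**Figure D4:**
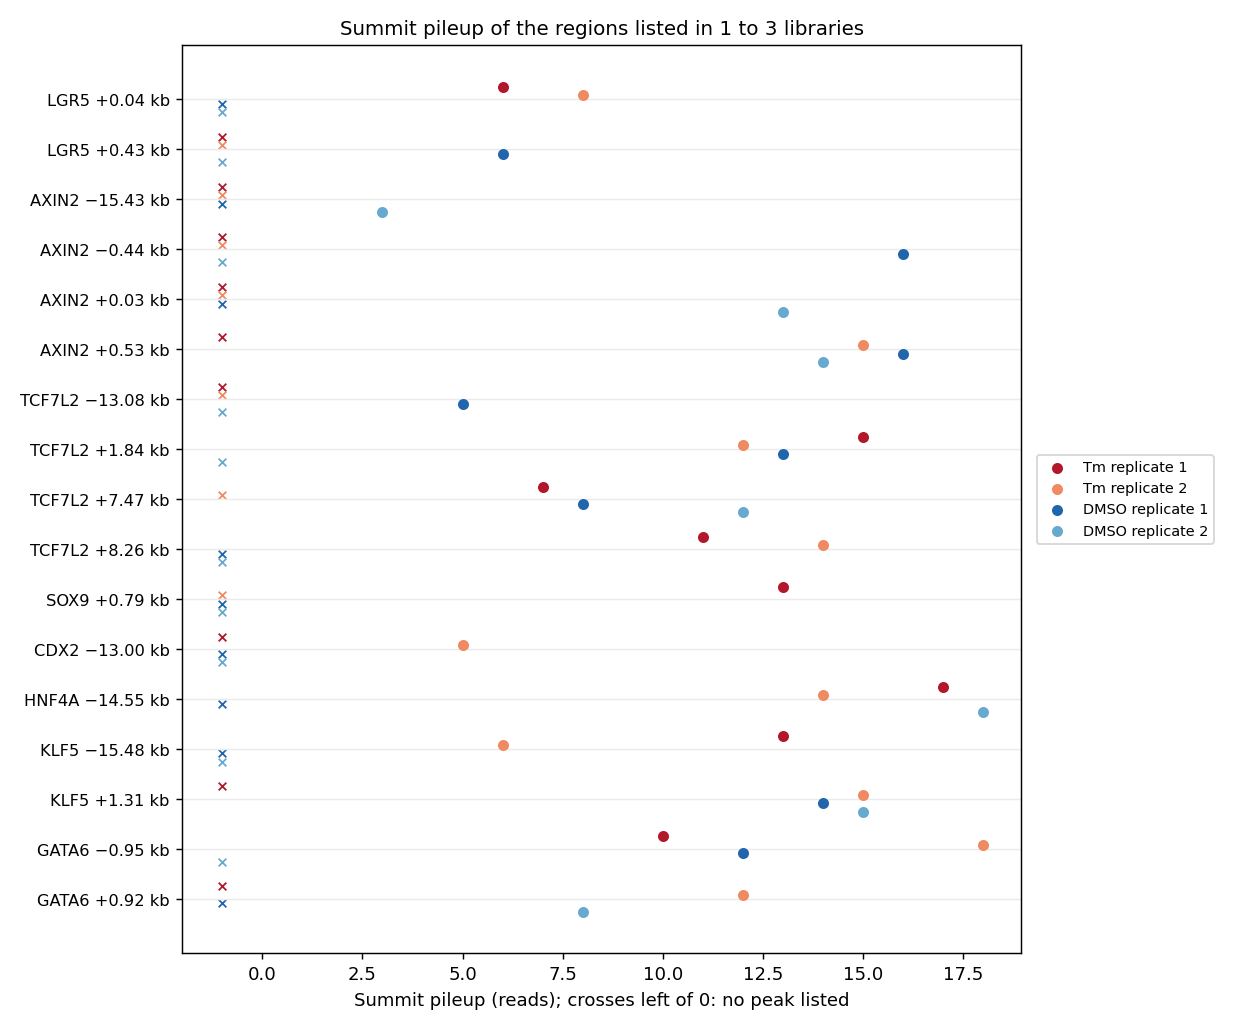
Summit pileup in reads (x axis) of the 17 regions listed in 1 to 3 libraries, with Tm replicates in red tones above DMSO replicates in blue tones; a cross left of 0 marks a library that listed no peak. Listed pileups run from 3 to 18, and the 3 gained regions (LGR5 +0.04 kb, TCF7L2 +8.26 kb and KLF5 15.48 kb upstream) have crosses for both DMSO libraries.

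Common regions of the study were not matched to those of the 9 genes for nearness to a transcription start. At the median, the common regions of the 9 genes had taller summits than common regions of the study as a whole. Their median summit pileup was 24 in Tm replicate 1, 34 in Tm replicate 2, 28.5 in DMSO replicate 1 and 27.5 in DMSO replicate 2, beside medians of 19 and 21 in Tm and 18 and 19 in DMSO over all common regions. Regions of the other patterns, which were neither gained, lost nor common, had median pileups of 13 and 14 in Tm and 12.5 and 13 in DMSO, beside 9 and 9 in Tm and 8 and 9 in DMSO over all such regions. The 3 gained regions had pileups of 6 to 14, beside a median of 9 in each Tm library over all gained regions. Strong promoters in these genes (SOX9, TCF7L2) and the tall KLF5 region had score differences of -0.12 to 0.27. The other common promoter regions had -0.44 (CDX2), -0.25 (ASCL2) and 0.10 (GATA6). Of the 16 common regions, 10 lay over 2 kb from a listed start, among them those with the 3 largest differences in each direction. This describes which regions had the larger values, none of which was called.

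The set of regions near the limits was small. The farthest region inside 20 kb was that of CDX2, with a midpoint at 17.12 kb and a pileup of 28 in DMSO replicate 2. Just outside lay peaks of Tm replicate 2 at 21.09 kb from the second HNF4A start, with a pileup of 8, and at 22.75 kb from the TCF7L2 start, with 5. At the 2 kb limit for promoters, ASCL2 at 1942 bp and CDX2 at 1849 bp were inside and KLF5 at 3913 bp was the first outside.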

How the data were processed

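ATAC-seq peaks were available for 4 libraries of wild-type HCT116 cells. According to the submitters' processing notes the tools included MACS2 2.2.7.1 and Bowtie2 2.3.5.1, with Picard 2.18.23, SAMtools, deepTools and Trim Galore, on hg19. Settings, including any shift, extension or filter of reads, were not given in the sources used here. Each library has its own peak list, deposited by the authors, with a whole-number score, a fold over background, −log10 p-values and −log10 q-values, and the summit position.

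A whole-number summit pileup was recovered from the deposited fold and −log10 p-value, which matched within 0.001 for 100% of peaks. What the caller piled up is not known, and it is called reads here. Peaks sharing at least 1 bp were merged into regions (Python 3.11.15, pandas 2.3.3), each carrying its best q-value per library. Normal scores of the ranks entered limma 3.58.1 in R 4.3.3 (trended prior, threshold 0.05), after a run on simulated data with known shifts. The simulated noise had the same spread for all regions, so that run does not measure power for the differences given here. Totals were compared by exact permutation (scipy 1.17.1). PCR duplicates cannot be judged from the lists.

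The main comparison did not pair libraries by replicate number. Deviations of same-numbered libraries from their group means had a correlation of 0.0111 over common regions. Whether the libraries were prepared as pairs cannot be told from this value. The members, motifs and lists were chosen with earlier results of these data known. Regions described in full were every promoter region, every gained or lost one, the strongest distal common region per gene, and the 3 largest score differences in each direction. Other regions are given by their pileups. Alternatives concerned q-value limits, list length, window, width, overlap, joining of nearby peaks, the ranked value, the prior spread, the replicate block and each library left out. Ranking by summit pileup was added after the data were seen. No hg19 annotation was used, so other WNT pathway genes were not located, exons and introns are not given, and distal sequences are not printed. Strands of LGR5, ASCL2, AXIN2 and SOX9 come from general knowledge.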

Additional observations from a re-analysis of the deposited data

How the results depend on the processing

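No member passed an adjusted p of 0.05 in limma under any of the 12 alternatives of the rank comparison, the replicate block included; the smallest adjusted p of a member was 0.272 to 0.839, and 0.322 with the block. At an unadjusted p under 0.05 stood 1 to 4 members. Of 177 score differences of named regions under alternatives, 164 kept their sign. Ranking by width reversed ASCL2 +1942 (0.34), CDX2 +17109 (0.051), GATA6 +66 (-0.14), HNF4A −12599 (0.13), SOX9 +5700 (-0.24) and TCF7L2 −250 (-0.67); the cause was not tested. Leaving out 1 library reversed ASCL2 +1942 (-0.79 to 0.33), CDX2 +17109 (-0.96 to 0.24), GATA6 +66 (-0.029 to 0.23), TCF7L2 +13696 (-0.25 to 0.78) and KLF5 +3913 (-0.31 to 0.069). With 1 library left in a group, limma assumes that it varies like the others.

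The 3 gained regions were 0 at a −log10 q of at least 10, where AXIN2 +4164 made 1 lost; TCF7L2 +7467 made 1 lost with lists of equal length, where the peak difference was -0.5 (23 in Tm, 23.5 in DMSO). LGR5 +44 was not gained at a −log10 q of at least 5, or with peaks up to 250 bp apart joined, and TCF7L2 +8255 dropped out at widths of at least 130 bp. With 1 library left out, gained regions numbered 4 to 5 and lost ones 1 to 3, under definitions that then differ between groups, and covered bases differed by -460.5 to 312.5. A 50 kb window gave 28 common regions and a covered-base difference of 92.5 (8707 in Tm, 8614.5 in DMSO). Low summit pileups limit the rest: the counting intervals of pileups of 7 or less reach 3, the lowest pileup listed.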
